A study of Mus musculus with 15 samples.

Results

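The liver secretes most proteins of the complement and coagulation cascades of the blood, and 36 of their genes, of the 18131 genes in the deposited count table, are described here. They are the rows whose gene symbol is on a list of 17 complement and 19 coagulation genes, and all 36 were found and passed the filter on low counts. RNA-seq libraries were made from livers of male C57BL/6 mice aged 6 months, labelled Sirt3-/- or wild type, on a high salt diet (HSD, 8% NaCl) or a normal salt diet (NSD, 0.4% NaCl), and the growth protocol lists mice of 6 weeks. The groups were KO HSD, KO NSD, WT HSD and WT NSD, with 3 libraries each. A further 3 wild-type libraries, whose titles name no genotype, form an additional set of 2 on high salt and 1 on normal salt. For the length of the diet one label gives 4 months and another 8 weeks.

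Complement is a chain of plasma proteases and binding proteins. Recognition by antibody or by lectins such as the mannose-binding lectins starts it, cleavage of C3 by C4b2a or by factor B complexes carries it forward, and C5 to C9 then assemble into the membrane attack complex. Coagulation ends in thrombin, which cuts fibrinogen into fibrin. Antithrombin and the protein C system hold it back, and plasmin dissolves the clot. Hepatocytes make nearly all of these proteins, and several of them are acute-phase proteins whose genes respond to interleukin-6 through STAT3.

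Total expected counts ran between 15726897 (WT NSD 3) and 19539406 (KO NSD 2) per library, and the 36 genes together took between 3.51% (KO NSD 2) and 6.02% (KO HSD 1) of them. Sirt3 transcript was present in the labelled knockouts, with 788 to 1303 counts in the 6 KO libraries and 872 to 1551 in the 6 WT libraries. No source used here describes the targeted allele, so KO means the label throughout. The sex label did not match 2 libraries. Over 4 Y-linked genes the summed level, in counts scaled to library size (CPM), was 2.57 CPM in library KO NSD 1 and 1.81 CPM in library KO NSD 3, against 64.1 to 108.5 CPM in the other 13 libraries. Over 7 genes known as female-biased in mouse liver the sum was 3077 and 2354 CPM in those libraries, 251.8 CPM in KO HSD 1, which carried Y-linked transcripts at 105.7 CPM, and at most 5.61 CPM elsewhere. Nothing in the labels says that libraries of a group came from separate animals, so each p-value rests on the spread among the libraries, part or all of which may be technical. In whole liver, fewer cells of a type and less RNA per cell cannot be told apart.

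Levels between genes are compared in the authors' FPKM values, which are scaled by effective length. The fibrinogen chains, C3 and vitronectin had the highest mean levels of the 36. Fgb, the fibrinogen beta chain, had the highest mean of the 36 genes, and its lowest, median and highest values over the 15 libraries were 1688, 2366 and 4023 FPKM. C3, the protein on which all complement routes converge, had 1373, 2258 and 4023 FPKM. Fgg, the gamma chain, had 1187, 1950 and 2938 FPKM and Fga, the alpha chain, 1027, 1542 and 2669 FPKM. Vtn, which encodes vitronectin, a binder of the terminal complex, lay between them at 1484, 1693 and 2354 FPKM. The ranges of these 5 genes overlap, so their order does not hold in every library. Kng1 (kininogen; mean 1449 FPKM), Serpinc1 (antithrombin; 1261 FPKM), Plg (plasminogen; 853 FPKM) and F2 (prothrombin; 772 FPKM) came next. Cfb, factor B of the alternative pathway, had 329, 484 and 647 FPKM. The lowest means were those of Pros1 (protein S, 15.3 FPKM), F11 (factor XI, 24.2 FPKM), Masp1 (a lectin-pathway protease, 24.3 FPKM) and C2 (42.3 FPKM).

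**Figure D1:**
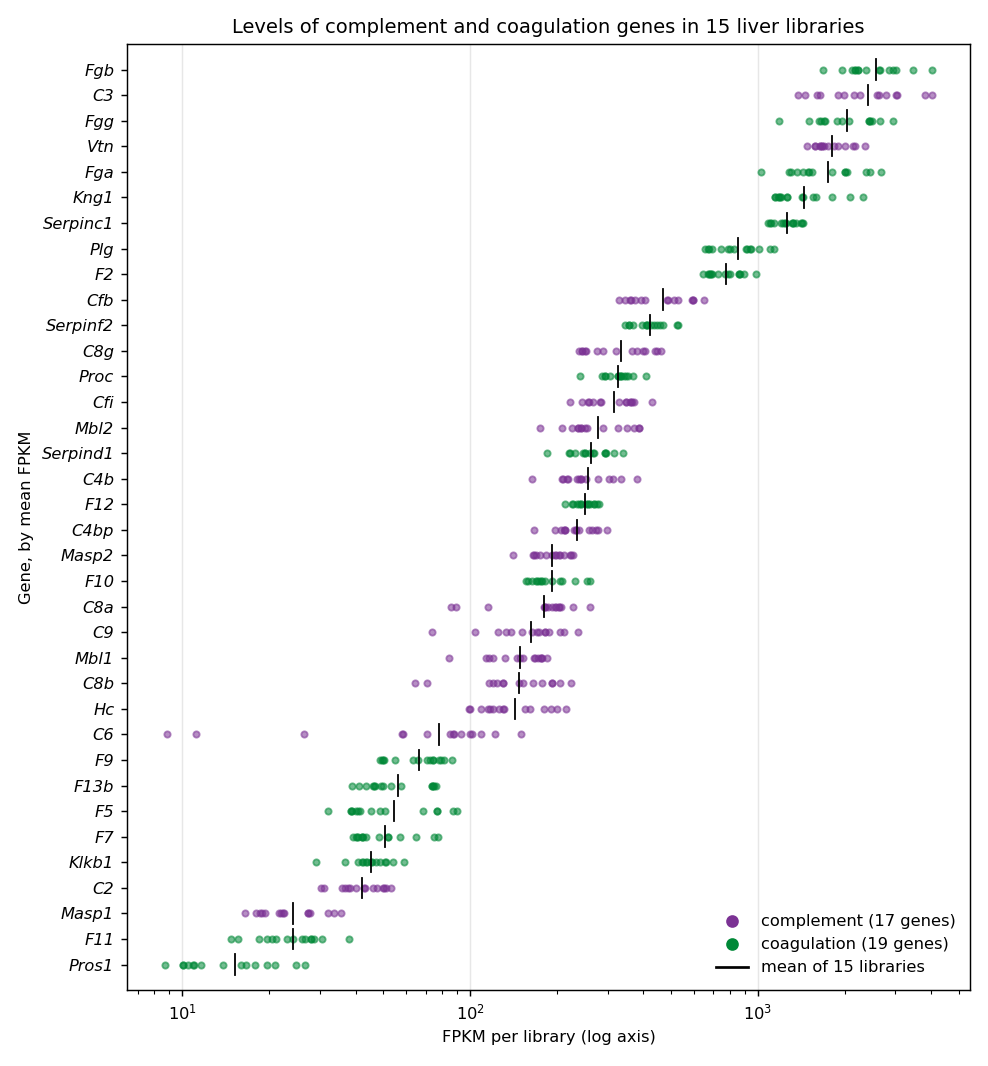
FPKM per library on a log axis for the 36 genes, ordered by their mean; each gene has 15 points (purple for complement, green for coagulation) and a black bar for the mean. Fgb, C3, Fgg, Vtn and Fga sit at the top with means of 1751 to 2565 FPKM, Pros1 is lowest at 15.3 FPKM, and C6 has the widest spread.

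The genes differed in how steady they were. The highest library was 1.31 times the lowest in FPKM for F12 (factor XII) and 1.33 times for Serpinc1. It was 16.98 times the lowest for C6 and 3.48, 3.22, 3.07 and 3.03 times for C8b, C9, Pros1 and C8a. Of the 5 genes with the widest range, 4 encode subunits of the membrane attack complex. In the heat map of all genes and libraries, KO HSD 1 held the highest CPM of the 15 libraries for 16 of the 36 genes, and the additional WT HSD 2 library held the lowest for 13, of which 10 were coagulation genes.

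**Figure D2:**
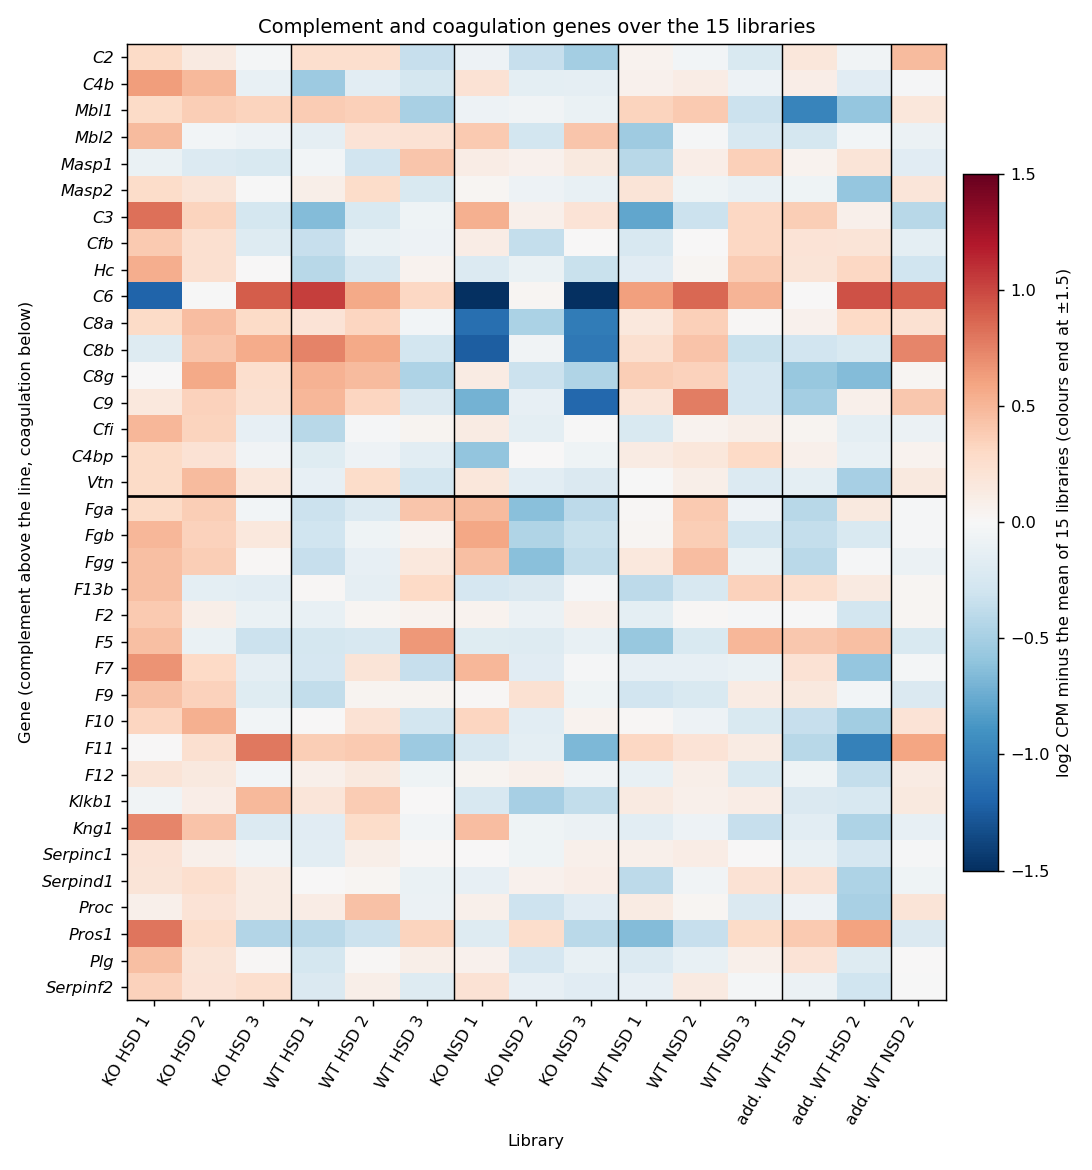
Level of each gene (rows) in each library (columns) as log2 CPM minus the gene's mean over 15 libraries, red above and blue below it, with colours ending at 1.5 either way. C6, C8a, C8b and C9 are blue in KO NSD 1 and KO NSD 3, and the KO HSD 1 column is red for most genes.

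The terminal complement genes gave the clearest difference between groups. On normal salt all 6 of them (Hc, which encodes mouse C5, then C6, C8a, C8b, C8g and C9) had negative log2 fold changes in KO NSD against WT NSD, with a median of -0.86, beside 0.01 over the 13051 genes tested. Only C8a, the alpha chain of C8, passed the test, and it fell. C8a stood at 284.9, 449.3 and 302.1 CPM in KO NSD 1, 2 and 3, against 696.7, 796.7 and 629.0 CPM in WT NSD. The groups do not overlap, and the means were 345 ± 90.4 CPM in KO NSD and 707 ± 84.4 CPM in WT NSD (SD, n = 3 each). Its log2 fold change was -1.03 ± 0.20 (SE; edgeR quasi-likelihood test, Benjamini-Hochberg adjusted p = 0.0466). On high salt C8a was at 757.2, 858.6 and 757.5 CPM in KO HSD and at 717.3, 781.1 and 605.9 CPM in WT HSD. KO NSD was therefore the low group of the 4, and the additional set (653.8 and 765.4 CPM on high salt, 729.9 CPM on normal salt) lay with the rest.

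C6, which joins C5b at the start of the membrane attack complex and was added to the named genes after its values were seen, had a still lower level in 2 libraries. It stood at 29.7, 181.1 and 24.0 CPM in KO NSD, against 272.5, 322.7 and 253.0 CPM in WT NSD. KO NSD 2 lay apart from the other KO NSD libraries, and the log2 fold change of -1.85 ± 0.75 did not pass (edgeR adjusted p = 0.285). On high salt C6 was at 77.7, 176.7 and 334.4 CPM in KO HSD and at 365.7, 263.9 and 221.2 CPM in WT HSD, so the KO HSD library with some female-biased transcripts, KO HSD 1, was the lowest of these 6. C9, the pore-forming subunit, had 170.6, 254.9 and 122.6 CPM in KO NSD and 314.1, 473.3 and 232.8 CPM in WT NSD (-0.89 ± 0.30, edgeR adjusted p = 0.169). C8b had 133.7, 302.9 and 150.1 CPM in KO NSD and 370.4, 421.2 and 249.1 CPM in WT NSD (-0.82 ± 0.35, edgeR adjusted p = 0.302). In both genes KO NSD 2 lies inside the range of WT NSD. C8g, the gamma chain (-0.36 ± 0.28), and Hc (-0.30 ± 0.20) differed less.

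**Figure D3:**
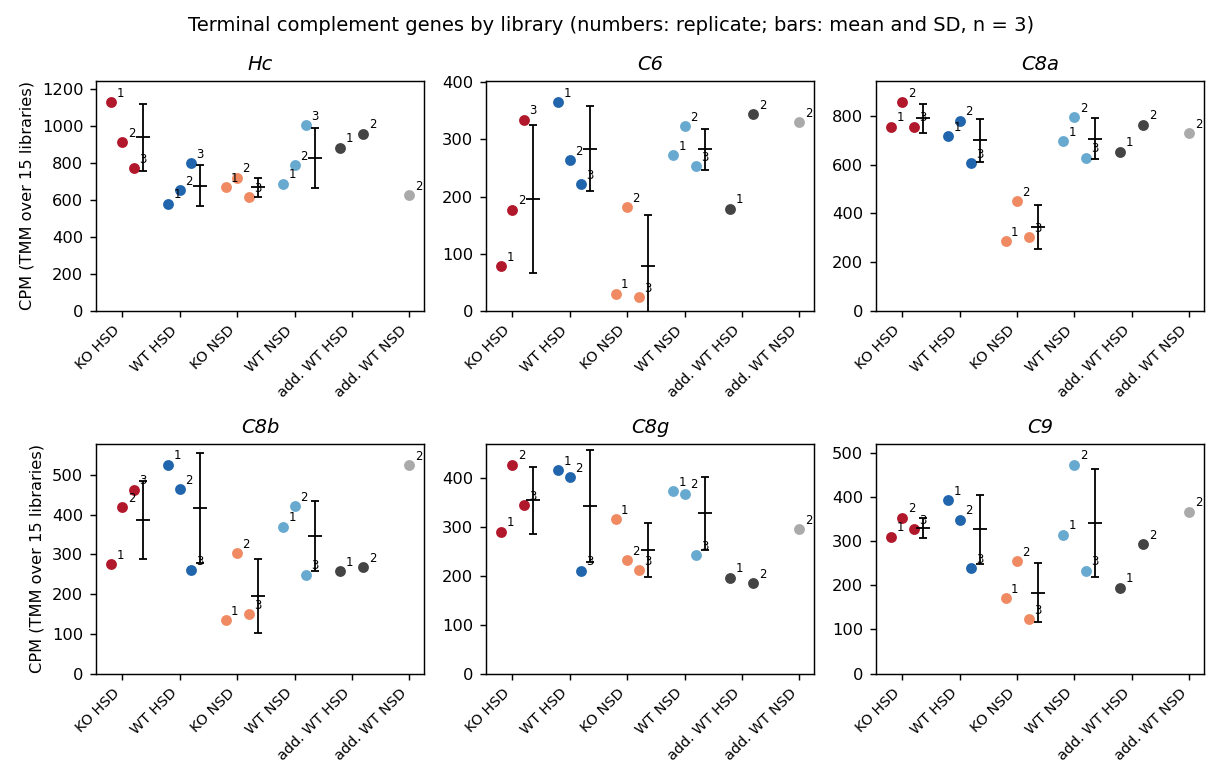
CPM of the 6 terminal complement genes in every library, by group, with replicate numbers beside the points and the mean and SD (n = 3) as black bars; axes start at 0, which cuts the lower arm of the C6 bar in KO NSD. The KO NSD points of C8a (284.9 to 449.3 CPM) lie under all others, and KO NSD 1 and 3 are the lowest points for C6, C8b and C9.

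The 2 libraries that go against the sex label are KO NSD 1 and 3, and they were the lowest of the 15 for C6, C8a, C8b and C9. KO NSD 2, whose Y-linked sum was 86.7 CPM, had 449.3 CPM of C8a, against at least 629.0 CPM in WT NSD. The part of sex in the difference was not tested. With those libraries left out, the log2 fold change against WT NSD was -0.67 ± 0.26 for C8a (edgeR adjusted p = 0.628), -0.66 ± 0.62 for C6 and -0.43 ± 0.39 for C9, from a single remaining KO NSD library whose spread was borrowed from the other groups. The C8a call was lost on leaving out any of 5 single libraries, and the effect stayed between -0.93 and -1.13. Its adjusted p was 0.144 without KO NSD 1, 0.171 without KO NSD 3, 0.164 without WT NSD 1, 0.18 without WT NSD 2 and 0.073 without WT NSD 3. Without KO NSD 2 it was 0.011, and C6 also passed (-3.38 ± 0.53, edgeR adjusted p = 0.0113). Effective lengths implied by the FPKM values were used to split the libraries into a longer and a shorter class. The cut was placed at the widest gap in the median shift, 1.30 bases. The shorter class was itself spread out, from -3.83 bases (WT NSD 3) to 0.73 bases (KO HSD 2), with KO NSD 1, 2 and 3 at -0.32, -0.17 and -1.91 bases. All 3 KO NSD libraries and WT NSD 3 were in the shorter class, WT NSD 1 and 2 in the longer. Within the shorter class C8a stood at 284.9, 449.3 and 302.1 CPM in KO NSD and at 629.0 CPM in WT NSD 3. With the class as a term the difference was -0.92 ± 0.22 and the call was lost (edgeR adjusted p = 0.0645).

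The promoters of the terminal genes are shown because the 4 genes were lowest in the same libraries. C8a and C8b are neighbours on chromosome 4, and C6 and C9 both lie on chromosome 15. Each run holds 250 bases before and 50 after the start used by its promoter entry (GRCm38.p6). The C8a run is chr4:104876349-104876648 on the minus strand. On the plus strand, C8b, C6 and C9 have chr4:104766067-104766366, chr15:4726960-4727259 and chr15:6445096-6445395. For C8b and C9 the start used is that of the RefSeq gene. The RefSeq gene starts at 104876487 for C8a and at 4727067 for C6, inside their runs. Those runs therefore hold fewer than 250 bases before the gene start. Capitals mark matches on either strand to 4 short patterns of liver and acute-phase factors, which are GTTAAT (HNF1 core), TTCNNNGAA (STAT), TTGCNNAA (C/EBP) and CAAAGNNCA (HNF4).
C8a: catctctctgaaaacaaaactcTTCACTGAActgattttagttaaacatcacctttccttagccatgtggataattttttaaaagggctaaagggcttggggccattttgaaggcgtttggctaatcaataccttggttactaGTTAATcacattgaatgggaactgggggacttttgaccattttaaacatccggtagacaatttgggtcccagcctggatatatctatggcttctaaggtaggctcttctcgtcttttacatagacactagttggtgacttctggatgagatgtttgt
C8b: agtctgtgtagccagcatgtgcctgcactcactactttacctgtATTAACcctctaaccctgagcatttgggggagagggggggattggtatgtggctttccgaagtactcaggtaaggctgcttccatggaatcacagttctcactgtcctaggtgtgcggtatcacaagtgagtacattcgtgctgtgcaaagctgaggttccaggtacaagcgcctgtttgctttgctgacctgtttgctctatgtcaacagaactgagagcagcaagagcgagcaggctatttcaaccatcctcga
C6: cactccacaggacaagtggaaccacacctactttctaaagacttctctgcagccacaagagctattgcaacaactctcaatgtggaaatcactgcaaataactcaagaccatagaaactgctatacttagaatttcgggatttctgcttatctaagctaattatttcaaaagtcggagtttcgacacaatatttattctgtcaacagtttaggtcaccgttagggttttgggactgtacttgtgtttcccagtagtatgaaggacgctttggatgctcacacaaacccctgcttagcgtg
C9: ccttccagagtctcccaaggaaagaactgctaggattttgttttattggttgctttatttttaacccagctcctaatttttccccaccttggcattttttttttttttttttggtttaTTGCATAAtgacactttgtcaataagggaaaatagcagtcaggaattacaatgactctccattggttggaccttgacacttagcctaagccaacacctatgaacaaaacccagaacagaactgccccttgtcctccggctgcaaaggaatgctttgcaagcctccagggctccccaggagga
C8a holds a STAT and an HNF1 pattern, C8b an HNF1 pattern, C9 a C/EBP pattern, and these letters are not in the C6 window. Such matches also occur outside these genes. GTTAAT was in 7.1% of the 32851 promoters of this length and in 9 of the 28 member genes that had a promoter entry (32.1%). The STAT pattern was in 8.3% of promoters and 7 of 28 members (25%). The C/EBP pattern was in 10.8% and 8 (28.6%), and the HNF4 pattern in 6.36% and 5 (17.9%). Each share was higher among the members, and the difference was not tested. A match describes the letters and is not evidence of binding.

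The 3 chains of C8 did not keep a fixed proportion. The log2 ratio of C8a to C8b in FPKM averaged 0.31 ± 0.34 (SD, 15 libraries), and that of C8a to C8g averaged -0.91 ± 0.55. The lowest C8a to C8g ratio was -2.21 in KO NSD 1, and the highest was 0.09 in the additional WT HSD 2 library. C8g had 316.3, 232.3 and 211.9 CPM in KO NSD and 373.2, 368.7 and 242.2 CPM in WT NSD, with overlapping groups.

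Upstream of the terminal pathway, no complement gene passed the test between KO NSD and WT NSD. Over the 17 complement genes 4 log2 fold changes were positive and 13 negative, with a median of -0.22 (-0.12 without WT NSD 2), and 1 gene was called, lower, beside 0.414% of all genes tested (0.176% lower). DESeq2 called the same gene alone among the 36, beside 4.69% of its genes. KO NSD lay wholly below WT NSD for 3 complement genes (C6, C8a and C4bp, the C4b-binding protein that restrains the classical pathway), where 9.58% of all genes did so, and wholly above for none, where 9.95% did so. C4bp had 279.1, 423.8 and 402.1 CPM in KO NSD and 459.8, 474.4 and 519.4 CPM in WT NSD (-0.39 ± 0.18, edgeR adjusted p = 0.342). C3 had 11363, 8337 and 9068 CPM in KO NSD and 4593, 6324 and 9789 CPM in WT NSD, a difference of 0.48 ± 0.32 (edgeR adjusted p = 0.553) with overlapping groups. Mbl2, a mannose-binding lectin, stood at 0.47 ± 0.23 (edgeR adjusted p = 0.393). The 6 genes that start the cascade (C2, C4b, Mbl1, Mbl2, Masp1 and Masp2) lay between -0.23 and 0.47, Cfb at -0.10, and the inhibitors Cfi (factor I) and Vtn at 0.03 and -0.02. C4b, the complement C4 gene, was at -0.04 ± 0.21. Its near-identical neighbour C4a, known as sex-limited protein for its dependence on male hormones, had 7.02, 24.6 and 6.00 CPM in KO NSD and 116.9, 59.2 and 44.0 CPM in WT NSD (edgeR adjusted p = 0.148). Reads of C4a and C4b are shared out by the counting, so both values are uncertain.

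Coagulation genes did not pass the test between KO NSD and WT NSD (0 of 19, with 8 positive and 11 negative log2 fold changes and a median of -0.01, which lay between -0.08 and 0.05 on leaving out single libraries). The lowest adjusted p was that of Klkb1, plasma prekallikrein. It stood at 200.7, 168.1 and 183.6 CPM in KO NSD, against 261.4, 251.9 and 256.1 CPM in WT NSD. The groups do not overlap, and the log2 fold change was -0.47 ± 0.17 (edgeR adjusted p = 0.219). F11, which encodes factor XI and is the neighbour of Klkb1 on chromosome 8, had 48.5, 51.6 and 35.7 CPM in KO NSD and 71.0, 65.7 and 62.2 CPM in WT NSD (-0.54 ± 0.26, edgeR adjusted p = 0.38). These were the 2 of 19 coagulation genes with KO NSD wholly below WT NSD, where 9.58% of all genes were. The procoagulant factors F2, F5, F7, F9 and F10 lay between -0.12 and 0.26, the anticoagulants Serpinc1, Serpind1, Proc and Pros1 between -0.11 and 0.10, and Plg and Serpinf2 (alpha-2-antiplasmin) at -0.01 and -0.00. F12 and Kng1 of the contact system stood at 0.11 and 0.32, and F13b, a subunit of the fibrin-stabilizing factor XIII, at -0.09. In both lists together 6 of 36 genes had an unadjusted p under 0.05, all of them lower in KO NSD, where 5.61% of all genes did so.

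**Figure D4:**
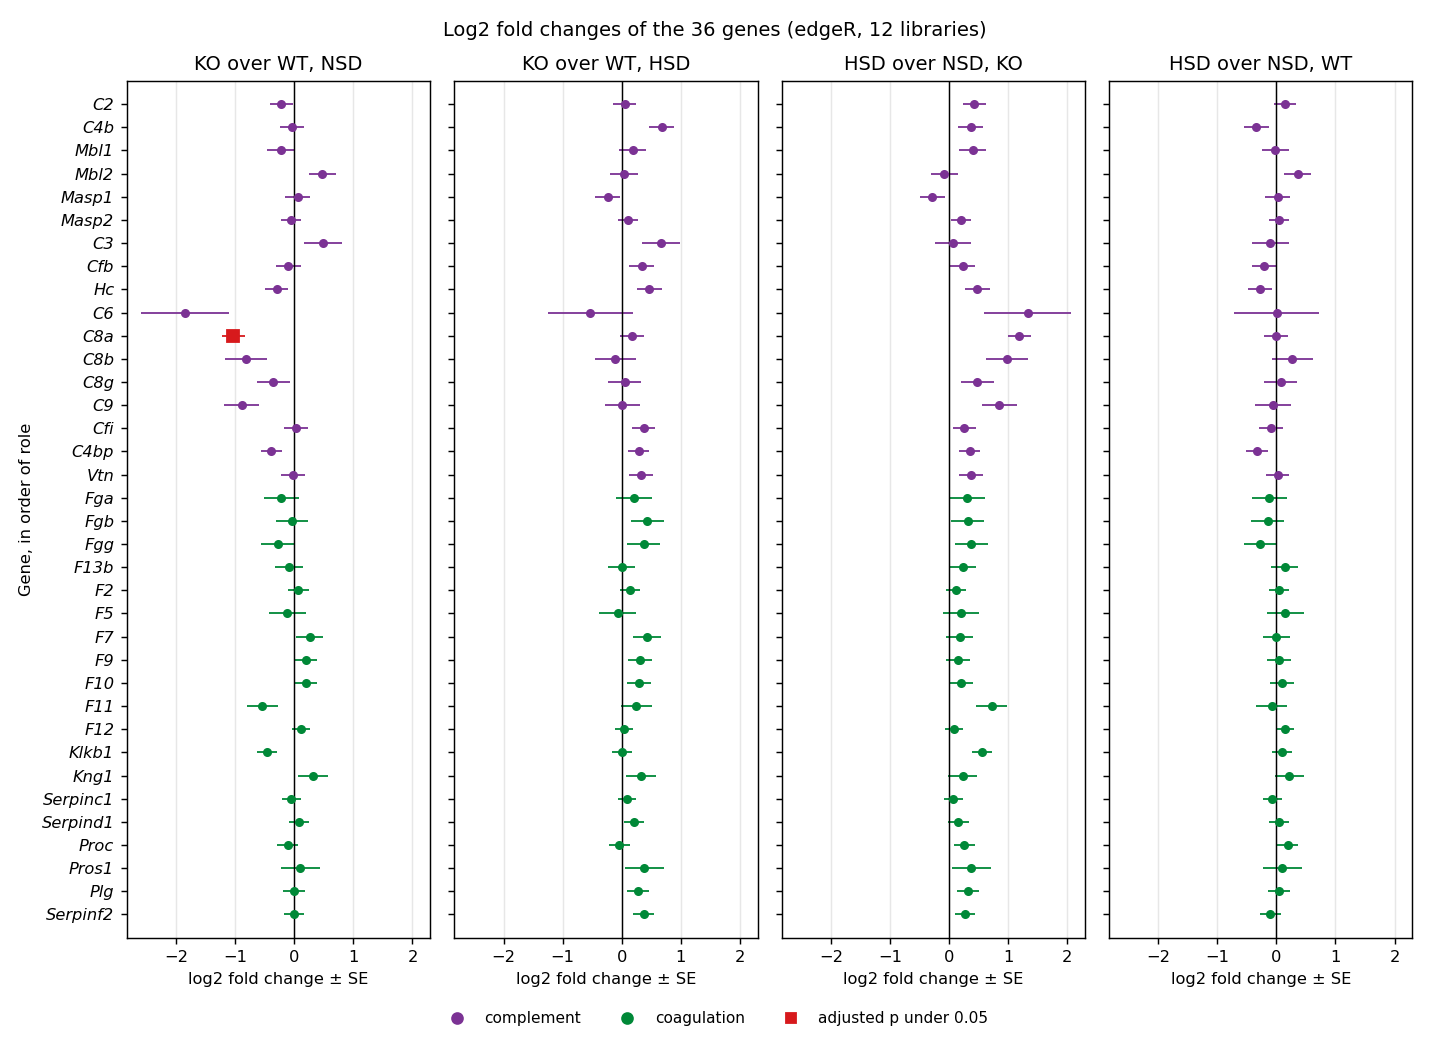
Log2 fold change with its SE for the 36 genes in 4 comparisons (edgeR, 12 libraries), purple for complement and green for coagulation, with a red square where the adjusted p is under 0.05. C8a at -1.03 in KO NSD against WT NSD is the only red square, and all 19 coagulation genes lie right of 0 in KO HSD against KO NSD.

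On high salt no gene passed between labelled knockout and wild type by edgeR (0% of 13051 genes, with 603 at an unadjusted p under 0.05). DESeq2 called 28 genes, 0.181% of those it tested, and none of the 36. Most of the 36 had positive log2 fold changes in KO HSD against WT HSD, 14 of 17 for complement with a median of 0.17 and 16 of 19 for coagulation with a median of 0.25, beside -0.01 over all genes. The complement median was 0.08 without WT HSD 3, and -0.03 without the libraries with the lowest FPKM totals of their groups (KO HSD 1, KO NSD 3, WT HSD 3 and WT NSD 3). The coagulation median was 0.16 without KO HSD 1 and 0.15 with the effective-length class as a term. Only C4b and Hc reached an unadjusted p under 0.05, both higher, where 2.61% of all genes did so. C4b had the smallest p. It stood at 2126, 1935 and 1273 CPM in KO HSD, against 943.5, 1234 and 1149 CPM in WT HSD (0.68 ± 0.21, edgeR adjusted p = 0.933). The groups do not overlap, but KO HSD 3 lies only just above WT HSD. Groups also stood apart for C4bp, Fgb, Serpind1 (heparin cofactor II) and Serpinf2, where 4.08% of all genes were wholly higher. Hc had 1129, 911.4 and 772.0 CPM in KO HSD and 578.3, 651.3 and 797.2 CPM in WT HSD (0.47 ± 0.21). Serpinf2 had 1180, 1066 and 1100 CPM in KO HSD and 794.6, 985.4 and 807.4 CPM in WT HSD (0.37 ± 0.17). F7, the tissue factor partner factor VII, had 144.7, 111.7 and 82.3 CPM in KO HSD and 75.8, 103.4 and 71.0 CPM in WT HSD (0.43 ± 0.24).

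KO HSD 1 held the highest of the 15 values for 16 of the 36 genes and KO HSD 2 for 5, and both libraries were also high for acute-phase genes. Over 8 such genes (Saa1, Saa2, Orm1, Orm2, Hp, Hpx, Lcn2 and Serpina3n) the summed level was 24533, 26499 and 9731 CPM in KO HSD 1, 2 and 3, against 6927, 9839 and 7130 CPM in WT HSD. C3 was likewise higher in KO HSD 1 and 2 than in WT HSD, with 13928, 9936 and 6594 CPM in KO HSD and 5017, 6707 and 7510 CPM in WT HSD. Fgb had 6026, 5456 and 4779 CPM in KO HSD and 3489, 4092 and 4455 CPM in WT HSD. In other groups the acute-phase and coagulation sums did not always go together. KO NSD 1 had 19709 CPM of the acute-phase genes and 32762 CPM of the coagulation genes. KO NSD 2 had 16397 CPM of the acute-phase genes and the lowest coagulation sum of the 15 libraries, 20710 CPM. The additional WT HSD 1 library had 16030 and 22764 CPM. The part of the acute-phase genes in the differences between KO HSD and WT HSD was not tested.

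In the labelled knockouts nearly all of the 36 genes had positive log2 fold changes with salt, and none was called. In KO HSD against KO NSD, 15 of 17 complement genes (median 0.37) and 19 of 19 coagulation genes (median 0.23) were positive, beside a median of -0.00 over all genes. No gene was called by edgeR (0%, with 1051 at an unadjusted p under 0.05). At that unadjusted p stood 5 complement and 2 coagulation genes, all higher, where 2.55% of all genes did so. This comparison shares KO NSD with that of KO NSD against WT NSD and KO HSD with that of KO HSD against WT HSD, so they are not independent. C8a, at 757.2, 858.6 and 757.5 CPM in KO HSD against 284.9, 449.3 and 302.1 CPM in KO NSD, stood at 1.19 ± 0.20 (edgeR adjusted p = 0.303). DESeq2 called it (adjusted p = 5.44e-05) among 56 genes (0.418% of those it tested), and edgeR did without KO NSD 2 (1.42 ± 0.20, adjusted p = 0.013). C9 stood at 309.5, 353.3 and 327.0 CPM in KO HSD, against 170.6, 254.9 and 122.6 CPM in KO NSD (0.85 ± 0.30, edgeR adjusted p = 0.515). Klkb1 stood at 229.5, 255.7 and 334.1 CPM in KO HSD, against 200.7, 168.1 and 183.6 CPM in KO NSD (0.56 ± 0.17, edgeR adjusted p = 0.448). F11 stood at 57.6, 67.6 and 99.3 CPM in KO HSD, against 48.5, 51.6 and 35.7 CPM in KO NSD (0.72 ± 0.26). For these 4 genes the groups do not overlap. In all, 6 complement genes (C2, Mbl1, Hc, C8a, C9 and Vtn) and 4 coagulation genes (Klkb1, F11, Proc and Serpind1) were wholly higher in KO HSD, where 6.06% of all genes were, and Masp1 was wholly lower, where 5.75% were. The female-biased sum was 251.8, 5.61 and 0 CPM in KO HSD and 3077, 2.10 and 2354 CPM in KO NSD, so the 2 libraries without Y-linked transcripts are both on the normal salt side. Without KO NSD 1 and 3, C8a stood at 0.83 ± 0.26 (edgeR adjusted p = 0.843), and the medians were 0.40 for complement and 0.45 for coagulation. The coagulation median was 0.40 without KO NSD 1 and 0.35 without KO HSD 3, and 0.12 without KO HSD 1, KO NSD 3, WT HSD 3 and WT NSD 3.

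None of the 36 genes was called for salt in wild-type mice. In WT HSD against WT NSD edgeR called 0% of genes (0 genes, with 584, or 4.47%, at an unadjusted p under 0.05). DESeq2 called 8 genes (0.0458%), and none of the 36 reached an unadjusted p of 0.05 in edgeR. Medians were -0.01 for complement and 0.04 for coagulation, beside 0.02 over all genes. On leaving out single libraries they lay between -0.10 and 0.12 for complement and between -0.02 and 0.10 for coagulation. C4bp had 371.0, 399.0 and 379.0 CPM in WT HSD and 459.8, 474.4 and 519.4 CPM in WT NSD (-0.33 ± 0.18). C4b had 943.5, 1234 and 1149 CPM in WT HSD and 1440, 1483 and 1310 CPM in WT NSD (-0.34 ± 0.21). These were the 2 genes with WT HSD wholly below WT NSD, where 4.86% of all genes were, and their adjusted p was 1.0 in edgeR. Proc, which encodes protein C, had 557.9, 701.0 and 484.0 CPM in WT HSD and 560.0, 527.1 and 443.6 CPM in WT NSD, with overlapping groups (0.19 ± 0.18). Fgg had 2703, 3149 and 3812 CPM in WT HSD and 3824, 4713 and 3185 CPM in WT NSD, again with overlap (-0.27 ± 0.28).

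The difference between the salt effects in labelled knockouts and in wild type was tested directly, and edgeR called 0% of genes (0 genes, with 706 at an unadjusted p under 0.05). DESeq2 called 8 genes (0.0458%), none of them among the 36. Of the 36, C8a came nearest there, at 1.21 ± 0.29 (DESeq2 adjusted p = 0.0511). At an unadjusted p under 0.05 stood 4 of the 36, all complement and all higher (C8a, C4bp, Hc and C4b), where 2.04% of all genes did so. C8a had the smallest p of the 36. Its log2 salt effect was 1.19 ± 0.20 in KO and -0.01 ± 0.20 in WT, and the difference had an SE of 0.28 (unadjusted p = 0.000914, edgeR adjusted p = 0.835). C4bp followed with 0.68 ± 0.25 and Hc with 0.77 ± 0.29 (edgeR adjusted p = 0.835 for both). Among coagulation genes F11 came nearest with 0.80 ± 0.37 and Klkb1 next with 0.47 ± 0.24 (edgeR adjusted p = 0.904 and 0.906).

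In the additional wild-type set, with 2 high salt libraries and 1 on normal salt, edgeR called 0.0216% of 13864 genes and none of the 36. Unadjusted p was under 0.05 for 3 of them, F11, Mbl1 and F10, all lower, where 6.97% of all genes did so. F11 had 42.8 and 28.3 CPM in the high salt libraries, against 86.3 CPM in the other (-1.28 ± 0.39, edgeR adjusted p = 0.412). Mbl1, a mannose-binding lectin, had 73.4 and 97.3 CPM in the high salt libraries, against 163.8 CPM in the other (-0.94 ± 0.34, edgeR adjusted p = 0.412). Both high salt libraries were in the shorter class of effective length and the normal salt library in the longer, so diet and class cannot be told apart there. C8a stood at -0.04 ± 0.29.

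Fibrinogen is built from equal numbers of its 3 chains, and their genes lie side by side on chromosome 3. Their levels kept close to each other over all 15 libraries. In FPKM the log2 ratio of Fgg to Fgb averaged -0.33 ± 0.12 (SD, 15 libraries), that of Fga to Fgg -0.23 ± 0.14 and that of Fga to Fgb -0.57 ± 0.22. Unlogged, these ratios ran from 0.703 to 0.919, from 0.747 to 1.07 and from 0.567 to 0.92 in the same order. Each gene's own highest library was 2.38 to 2.60 times its lowest. Fga came nearest to Fgb in the additional WT HSD 2 library (-0.12) and in WT HSD 3 (-0.14). Fga had 7474, 3481 and 4092 CPM in KO NSD and 5454, 7100 and 5128 CPM in WT NSD. Fgb had 6377, 3122 and 3403 CPM in KO NSD and 4358, 5512 and 3527 CPM in WT NSD. All 3 chains were highest in KO NSD 1 within KO NSD, and the groups overlap. In KO NSD against WT NSD the changes were -0.22 ± 0.30 for Fga, -0.04 ± 0.27 for Fgb and -0.28 ± 0.28 for Fgg. In KO HSD against WT HSD they were 0.21 ± 0.30, 0.43 ± 0.28 and 0.37 ± 0.28 in the same order. Their promoters, shown because the levels of the 3 genes kept close to each other, lie at chr3:83025903-83026202 (plus strand), chr3:83049814-83050113 (minus strand) and chr3:83007474-83007773 (plus strand), with capitals for the same 4 patterns.
Fga: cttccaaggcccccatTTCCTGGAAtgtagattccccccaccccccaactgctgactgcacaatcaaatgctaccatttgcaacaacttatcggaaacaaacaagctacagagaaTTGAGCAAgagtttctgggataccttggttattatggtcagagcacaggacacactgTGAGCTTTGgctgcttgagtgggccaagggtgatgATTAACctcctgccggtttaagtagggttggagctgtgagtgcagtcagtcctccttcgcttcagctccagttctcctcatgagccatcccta
Fgb: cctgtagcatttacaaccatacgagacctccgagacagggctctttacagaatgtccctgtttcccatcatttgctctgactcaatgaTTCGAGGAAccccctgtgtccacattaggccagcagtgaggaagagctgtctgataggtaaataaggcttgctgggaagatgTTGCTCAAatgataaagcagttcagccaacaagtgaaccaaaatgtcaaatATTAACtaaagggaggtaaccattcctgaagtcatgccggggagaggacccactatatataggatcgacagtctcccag
Fgg: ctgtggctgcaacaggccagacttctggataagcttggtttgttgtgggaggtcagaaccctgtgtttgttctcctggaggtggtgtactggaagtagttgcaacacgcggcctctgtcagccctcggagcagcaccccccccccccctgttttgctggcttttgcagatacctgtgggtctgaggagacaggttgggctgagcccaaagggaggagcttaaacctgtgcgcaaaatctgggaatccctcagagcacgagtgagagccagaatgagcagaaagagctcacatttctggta
Fga holds all 4 patterns, Fgb holds the STAT, C/EBP and HNF1 patterns, and these letters are not in the Fgg window.

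The effective length of a gene in each library follows from its count and its FPKM, and it can differ with transcript form or with the library. For 29 of the 36 genes this length varied by at most 5% over the libraries. Masp2 varied most, by 34.6%, with 1168 bases in WT HSD 1 and 1572 bases in the additional WT HSD 1 library. This gene encodes the lectin-pathway protease MASP-2 and a short product, MAp19, and has 2 curated RefSeq transcripts. C3 varied by 27.1%, and its length was 3813 to 3958 bases in WT HSD 3, WT NSD 3 and both additional WT HSD libraries, against 3113 to 3454 bases in the other 11. Fga varied by 13.4% and was at its shortest, 2996 to 3045 bases, in the same 4 libraries. All 4 are wild-type libraries, and they had the lowest summed FPKM of the 15. They also had the most negative median shift in effective length over genes of nearly constant length, -2.73 to -3.83 bases. C3 has 1 curated RefSeq transcript. Transcript form and a property of these libraries cannot be told apart here. Masp2 was also long in KO HSD 1 (1483 bases). FPKM levels of C3, Masp2 and Fga depend on this length, whereas the tests above used counts. So do those of C8g, which varied by 10.4%, and the chain ratios in FPKM that hold Fga or C8g. The additional WT HSD 2 library had the highest C8a to C8g ratio and the Fga level nearest to Fgb. Its lengths were 936 bases for C8g (851 to 940 over the libraries) and 3020 bases for Fga.

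**Figure D5:**
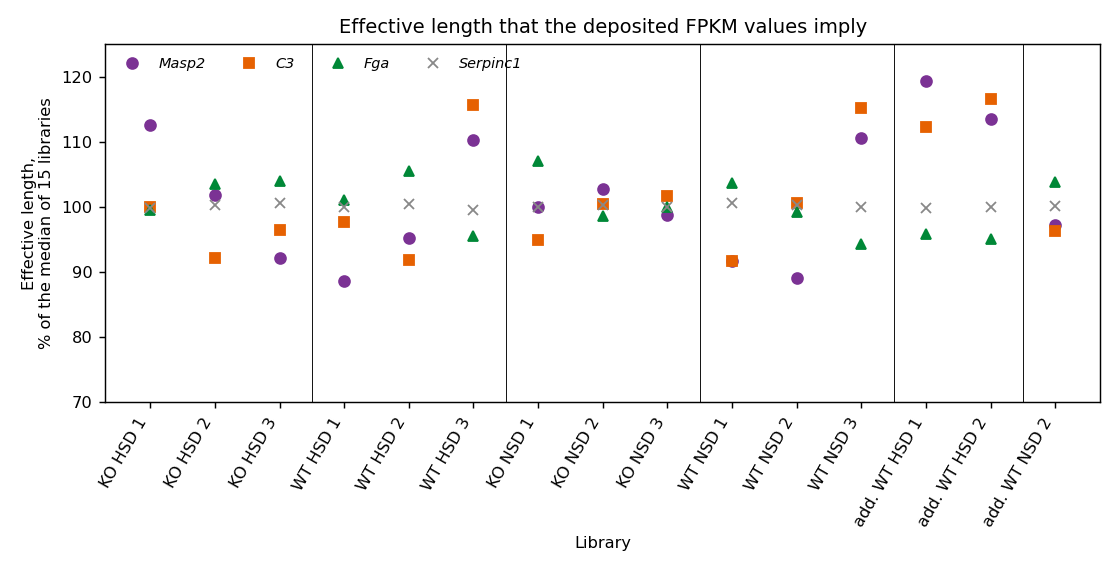
Effective length per library, as a percentage of the gene's median over 15 libraries, for Masp2, C3, Fga and Serpinc1, a gene of steady length. C3 is long and Fga short in WT HSD 3, WT NSD 3 and both additional WT HSD libraries; Masp2 is long there and in KO HSD 1, while Serpinc1 stays near 100.

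Other genes of the cascades, some of them made outside hepatocytes, were tested in the same fit. In KO NSD against WT NSD edgeR called 2 higher and 1 lower of 23 further complement genes (median 0.39), none of 20 further coagulation genes (median 0.26) and none of 14 regulators of liver transcription and the acute phase (median 0.09), where 0.238% of all genes were called higher and 0.176% lower. DESeq2 called 7 higher and 2 lower of the further complement genes, 1 higher of the further coagulation genes and none of the regulators, where it called 2.96% of all genes higher and 1.73% lower. C5ar1, a receptor for the C5a fragment on myeloid cells, rose, with 2.18, 2.82 and 1.76 CPM in KO NSD against 0.46, 0.64 and 0.36 CPM in WT NSD (4.6-fold, with an SE of 0.38 on the log2 scale, edgeR adjusted p = 0.0403). C3ar1, the C3a receptor, rose, with 5.69, 3.99 and 5.12 CPM in KO NSD against 2.00, 1.80 and 1.15 CPM in WT NSD (1.59 ± 0.29, edgeR adjusted p = 0.0433). Both receptors are low, with 36 to 115 counts per library in KO NSD and 6 to 35 in WT NSD. Cfd, the adipocyte protease adipsin that cleaves factor B, was lower in KO NSD than in WT NSD (edgeR adjusted p = 0.0454). It had 0 counts over the 3 KO NSD libraries and 73 over the 3 WT NSD libraries, at least 26.0-fold lower against a floor of 3 counts over the group. The WT NSD libraries had 38, 25 and 10 counts. On high salt there were 0, 2 and 2 counts in KO HSD and 9, 7 and 1 in WT HSD, so WT NSD was the high group of the 4. Cfd and C5ar1 passed the filter on low counts only through the group where each is high, WT NSD for Cfd and KO NSD for C5ar1. With no such filter the edgeR adjusted p was 0.0305 for Cfd and 0.034 for C5ar1. The lone additional normal salt library held 894 Cfd counts, against 0 to 38 in the other 14, and the extract protocol says that fat was trimmed away. The calls of C5ar1, C3ar1 and Cfd were lost without KO NSD 1, KO NSD 3, WT NSD 1 or WT NSD 2 (edgeR adjusted p = 0.0909 to 0.164), and those of C5ar1 and C3ar1 also without WT NSD 3 (edgeR adjusted p = 0.104 for both). Without KO NSD 1 and 3 together edgeR called 0 genes in all, and the adjusted p was 0.247 for C5ar1, 0.465 for C3ar1 and 0.412 for Cfd. With the effective-length class as a term they were 0.0629, 0.0614 and 0.0618 in the same order. C1qa, C1qb and C1qc, the C1q chains made by macrophages, did not pass (edgeR adjusted p = 0.104 to 0.145). Sums over markers of myeloid cells were also higher in KO NSD than in WT NSD. Within KO NSD C5ar1 did not follow them. It was highest in KO NSD 2, where both sums were lowest, whereas C3ar1 was lowest there. KO HSD 2 had 0.73 CPM of C5ar1. Its Kupffer cell sum was 219.6 CPM, above that of KO NSD 2, and its neutrophil sum was 27.5 CPM, below that of KO NSD 2. The sum over 8 Kupffer cell markers was 448.8, 148.2 and 330.6 CPM in KO NSD and 80.2, 109.4 and 91.5 CPM in WT NSD, and that over 9 neutrophil markers was 227.4, 80.7 and 126.9 CPM in KO NSD and 21.0, 14.8 and 8.44 CPM in WT NSD. In KO NSD most of the neutrophil sum came from S100a8, S100a9, Ngp and Ltf. Cxcr2, on the same list, had 5.69, 4.26 and 5.37 CPM in KO NSD and 8.69, 5.74 and 3.38 CPM in WT NSD, with overlapping groups. Ly6g differed little, with 5.31 to 6.87 CPM in KO NSD and at most 4.97 CPM in WT NSD. Each neutrophil marker except Cxcr2 was wholly higher in KO NSD. The part of both sums in the calls of C5ar1 and C3ar1 was not tested. The sum over 8 hepatocyte markers was 132849 to 150120 CPM in KO NSD and 120193 to 125333 CPM in WT NSD, most of it Alb (albumin), with 97009.7, 104672 and 114266 CPM in KO NSD and 83976, 80358 and 95321 CPM in WT NSD. Ttr (transthyretin), another of the 8, had 8485, 6824 and 7205 CPM in KO NSD and 11017.5, 9279 and 5985 CPM in WT NSD, with overlapping groups.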

How the data were processed

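Poly(A)-selected liver RNA was sequenced in 15 libraries. Per the submitters' processing notes the authors used Bowtie2 2.2.5 and RSEM 1.2.8 on build mm10; no source used here names the annotation or the strandedness. The authors deposited expected counts per gene, and FPKM values (so named because expected counts over these values and library totals give a near-constant length per gene) per library. RSEM shares reads between near-identical genes, so C4b, C4a, Kng1 and its paralogue Kng2 are uncertain. Expected counts were rounded. The 12 libraries of the 4 groups were fitted together with edgeR 4.0.16 in R 4.3.3 (4 group means, filterByExpr, TMM scaling and the robust form of the quasi-likelihood F test), with Benjamini-Hochberg adjustment over 13051 genes and a threshold of 0.05. For the additional set all 15 libraries entered the fit (13864 genes), so that the spread for its only normal salt library comes from the other groups. CPM used TMM scaling over 15 libraries. Fold changes are on the log2 scale with SE. DESeq2 1.42.0, other scaling and filters, and libraries left out were alternatives. The fit was tested on simulated data. All 36 members are accounted for. Values of every library are given for members called, for the 2 complement and 2 coagulation members with the smallest p per comparison and for chains of one protein, and the 3 most abundant of each list by their range; C6 and Masp2 were added after their values were seen. Members and lists were chosen with earlier results of these data known. All members matched RefSeq on GRCm38.p6, the source of positions and promoters (28 members had a promoter entry, and for C8g with 2 the entry listed at the top was searched). Total counts per library (15726897 to 19539406) set the precision; intervals cover the spread between libraries only.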

Additional observations from a re-analysis of the deposited data

How the results depend on the processing

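The C8a change in KO NSD against WT NSD kept its direction in every alternative, and its call held with RLE scaling (edgeR adjusted p = 0.0494), no filter on low counts (0.0492), all 15 libraries (0.0376) and DESeq2 (9.13e-05). The count of complement genes called there, 1, was 0 with the effective-length class as a term, without KO NSD 1 and 3, without KO HSD 1 as well, and without KO HSD 1, KO NSD 3, WT HSD 3 and WT NSD 3 (the lowest FPKM totals of their groups); the last 2 choices were made after seeing the data. Coagulation genes called were 0 in every comparison and alternative. Genes called in KO NSD against WT NSD numbered 54, against 645 with DESeq2, 106 with 15 libraries, 17 with the class term and 0 in both fits without KO NSD 1 and 3. DESeq2 called 28 genes in KO HSD against WT HSD, 56 in KO HSD against KO NSD with 1 complement gene, C8a, 8 in WT HSD against WT NSD, 8 for the difference between salt effects and 28 in the additional set. Without KO HSD 1, KO NSD 3, WT HSD 3 and WT NSD 3, 32 genes were called in WT HSD against WT NSD and 14 for the difference between salt effects. Leaving out single libraries gave 5 to 420 genes and 0 to 2 complement genes in KO NSD against WT NSD, 0 to 7 genes in KO HSD against WT HSD, 0 to 21 genes and 0 to 1 complement genes in KO HSD against KO NSD, 0 to 10 in WT HSD against WT NSD, 0 to 8 for the difference between salt effects and 1 to 1 in the additional set. The cause of these shifts was not tested. With the replicate number as a block, C8a stood at -1.04 ± 0.17 (edgeR adjusted p = 0.0229), and 98 genes were called in KO NSD against WT NSD and 1 in KO HSD against KO NSD. Deviations of same-numbered libraries were correlated over 0.1 in 6 of 18 pairs (median 0.06, against -0.04 for other pairs), and 5 of 12 libraries correlated best with their own number. The highest was 0.46, between WT HSD 3 and WT NSD 3. These correlations cannot settle whether same-numbered libraries share more than a number. Chain ratios from counts in place of FPKM averaged 0.33 (Fga to Fgb), 0.65 (Fga to Fgg), 0.99 (C8a to C8b), 1.11 (C8a to C8g) and 0.12 (C8b to C8g) in log2, because counts carry gene length. Depth was not low for any of the 36 genes, whose smallest count in a library was 492 (C6).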
